A study of Homo sapiens with 2 samples.

Results

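The DEAD and DEAH box RNA helicases were followed in 2 poly-A RNA libraries from HEK293T, a line of human embryonic kidney origin. Members were the protein-coding genes whose symbol is DDX or DHX followed by a number, leaving out the Y-linked DDX3Y and the DDX11L pseudogene copies. The rule gave 53 genes, 37 of them DDX and 16 DHX, of 28130 named genes. One library came from cells transfected with a synthetic copy (mimetic) of tRF-3004b, a short fragment cut from the 3' end of a tRNA. The other came from cells that received the non-targeting control RNA GL2. Each RNA was a single strand with a 5' phosphate, used at 500 nM with a lipid reagent, and RNA was collected 120 h later. Each group had 1 library, so no spread between replicates was available, no p-value was computed, and the comparison is of these 2 libraries rather than of the treatments.

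DEAD box and DEAH box proteins use ATP to bind, unwind or remodel RNA and to displace proteins from it. They are named after the letters of a conserved motif in the ATP-binding core. DEAD box members mostly open short duplexes locally, while many DEAH box members pull along a strand and are switched on by partner proteins with a G-patch. Between them they serve pre-mRNA splicing, the assembly of ribosomes in the nucleolus, mRNA export, translation, mRNA decay and the recognition of viral RNA.

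The RNAs that were transfected are shown because every comparison here rests on them, with bases 2 to 8, the part that corresponds to a microRNA seed, in capitals.
tRF-3004b mimetic: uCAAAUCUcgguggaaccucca
GL2 control RNA: cGUACGCGgaauacuucgauu

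A match to bases 2 to 8 of tRF-3004b, the heptamer AGATTTG read on the mRNA strand, was present in the annotated 3' UTR of 10 of the 53 helicase genes (18.9%). Over all genes searched it was present in 2214 of 18496 (12%), and the median 3' UTR was 585 bases in the helicases and 752 bases in all genes. The heptamer for the control RNA was in none of the 53 helicase 3' UTRs and in 36 of the 18496 searched. Sites of 5 members follow, with the heptamer in capitals. DDX1 and DDX20 are shown because their site is followed by an A, DHX40 because it was the one site gene below 0, and DDX18 and DHX9 as abundant site genes above 0.
DDX1 (chr2:15630926-15630932, plus strand, GRCh38): tttactgaataAGATTTGagtaatgaaag
DDX20 (chr1:111767249-111767255, plus strand): ataaaagcaatAGATTTGattagtaatat
DHX40 (chr17:59607361-59607367, plus strand): tgtcaaagaaaAGATTTGgttgccatagt
DDX18 (chr2:117831542-117831548, plus strand): gctcctcattaAGATTTGtttaattcaag
DHX9 (chr1:182887676-182887682, plus strand): ttaaggagtaaAGATTTGcctttaaataa

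The libraries differed greatly in depth, with 1809193 estimated counts in the tRF-3004b library and 19609933 in the control library, a 10.8-fold difference. Levels are given as CPM, counts scaled to a common library size with TMM factors, and as TPM, the authors' abundance per transcript length, where genes are compared with each other. All log2 ratios have the tRF-3004b level on top and the control level below, and their exact 95% intervals cover counting error only. HEK293T markers of renal progenitor and neuronal kind had counts in 7 of 8 genes in the tRF-3004b library, where LHX1 was at 0, and in 8 of 8 in the control library. Markers of other cells were present at low levels. Fibroblast markers summed to 117 CPM in the tRF-3004b library and 36.3 CPM in the control library, epithelial markers to 70.4 CPM in the tRF-3004b library and 29.5 CPM in the control library, and blood markers to 52.9 CPM in the tRF-3004b library and 4.46 CPM in the control library. Of the 8 genes in each of these lists, 8 fibroblast and 8 epithelial markers had counts in both libraries. Blood markers had counts for 7 of 8 genes in each library. Both libraries are labelled HEK293T, and marker reads alone do not show that other cells were in the culture. The source of these reads and its part in the helicase values were not tested. In bulk RNA fewer cells of a type and less RNA per cell cannot be told apart.

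The helicases together took up 0.857% of the counts in the tRF-3004b library and 0.790% in the control library. Per transcript length, DDX21 was the most abundant member in both, at 530 TPM in the tRF-3004b library and 504 TPM in the control library. In the tRF-3004b library DDX1 (349 TPM), DDX5 (338 TPM), DDX39B (312 TPM) and DDX3X (298 TPM) came next. In the control library the order was DDX39B (485 TPM), DDX17 (454 TPM), DDX5 (403 TPM) and DDX3X (315 TPM). DDX17 thus stood at rank 8 in the tRF-3004b library and at rank 3 in the control library. A mean of at least 1 CPM was reached by 48 members, which are called measured, and a mean of at least 10 CPM by 44.

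Most helicase transcripts were modestly higher in the tRF-3004b library, and few differed by much. Of the 48 measured members 33 had a log2 ratio above 0 and 15 below it, against 44.5% above 0 among all 13752 measured genes. The whole interval lay above 0 for 24 members (23.3% of all measured genes) and below 0 for 9 (28.6% of all). At least 2-fold higher were 3 members, DDX60L, DHX37 and DDX56 (12.2% of all genes), and at least 2-fold lower was 1, DDX60 (14.2% of all). DDX60L, also among the 24 with an interval above 0, passed the filter only through 4 counts in the tRF-3004b library. Its place in both counts thus followed from the filter and carries no weight. The shares of members at least 2-fold higher and lower, 6.25% and 2.08%, were below the background. Measured members were better counted than measured genes at large. In the tRF-3004b library the median count was 131 for members and 34 for all measured genes. In the control library it was 1222 for members and 433 for all. Counting depth bears on both the 2-fold and the interval shares, and its part in them was not tested. With a mean of at least 10 CPM, 2 of 44 members were at least 2-fold higher (6.11% of all genes) and none was at least 2-fold lower (8.55% of all). In that set the interval lay above 0 for 23 members (26.8% of all) and below 0 for 8 (36.7% of all), and 30 had a ratio above 0 (42.9% of all). The members' median log2 ratio was 0.26, beside -0.11 for all measured genes. The DDX members had a median of 0.32 and the DHX members of 0.18.

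**Figure D1:**
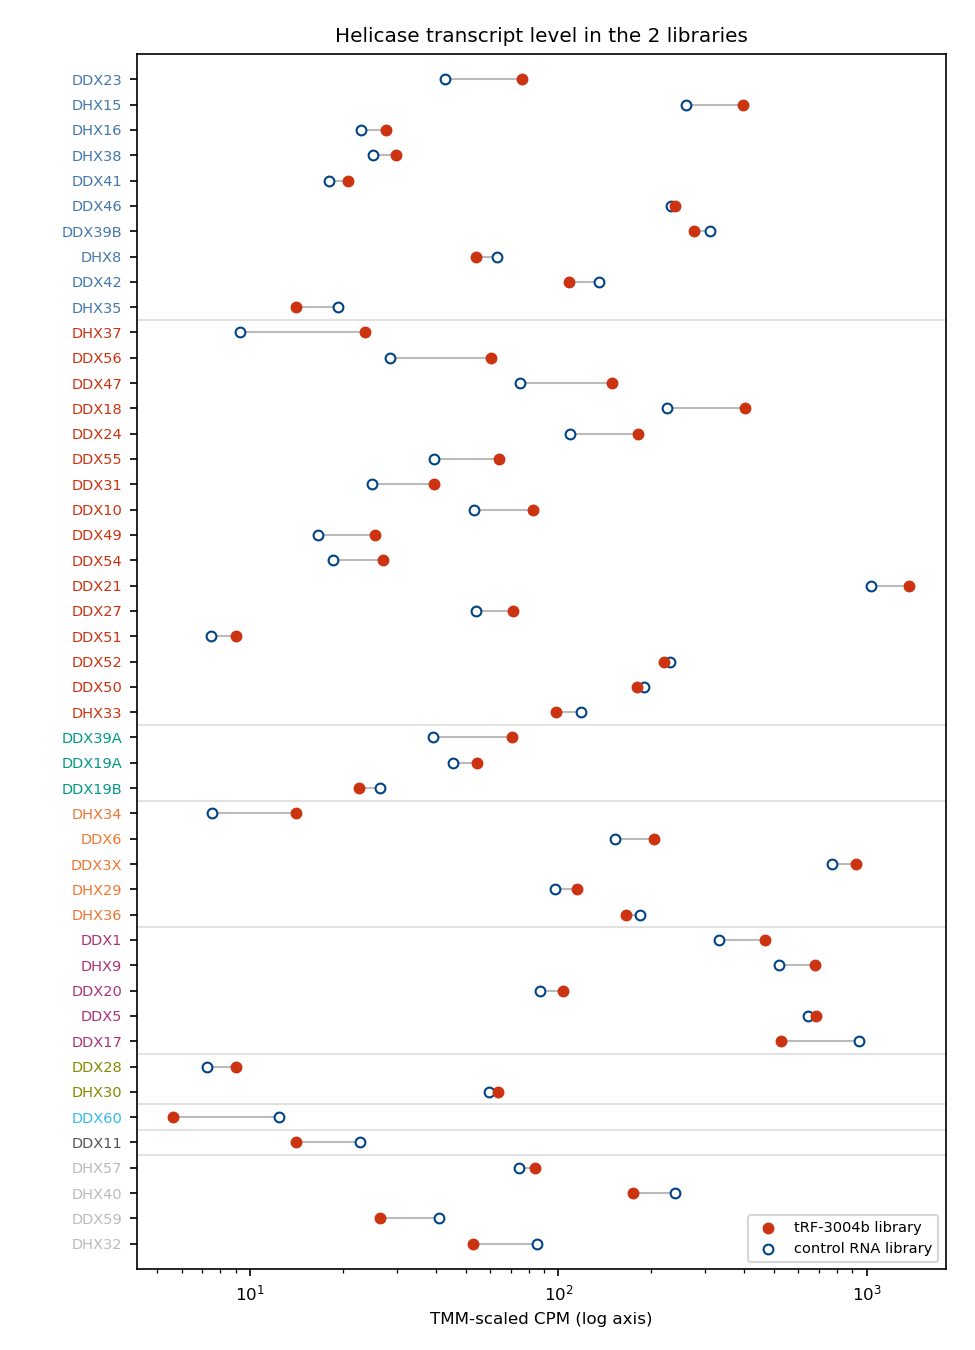
TMM-scaled CPM (log axis) of 47 measured helicase genes in the tRF-3004b library (filled) and the control RNA library (open), 1 library each, grouped by role from splicing at the top through ribosome assembly, mRNA export, translation and decay, nuclear RNA, mitochondria, RNA sensing and DNA helicase to other; DDX60L, at 0 in the control library, is not drawn. Levels run from 5.63 CPM for DDX60 to 1373 CPM for DDX21, both in the tRF-3004b library, and the ribosome assembly genes are mostly higher in that library.

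The direction across members turned with the unit, and the difference from other genes did not. With gene TPM and 1 added, the median of all measured genes moved to -0.38 and that of the members to -0.08, so that 20 of the 48 members lay above 0. Set against the median of all genes under the same unit, 33 of 48 members were higher with TPM and 35 of 48 with scaled counts. Across all genes the log2 ratio also moved with transcript length. With genes cut into 10 bins by length, the shortest bin had a median of 0.62 and the longest one of -0.44. Helicase transcripts are of middling length, with a median of 3642 bases beside 3228 bases for all measured genes, and neither end bin held a member. With the median of its length bin taken from each gene, the members' median was 0.45 and 37 of 48 lay above 0. DDX and DHX members had median lengths of 3263 and 4338 bases, and in that setting their medians were 0.46 and 0.43.

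**Figure D2:**
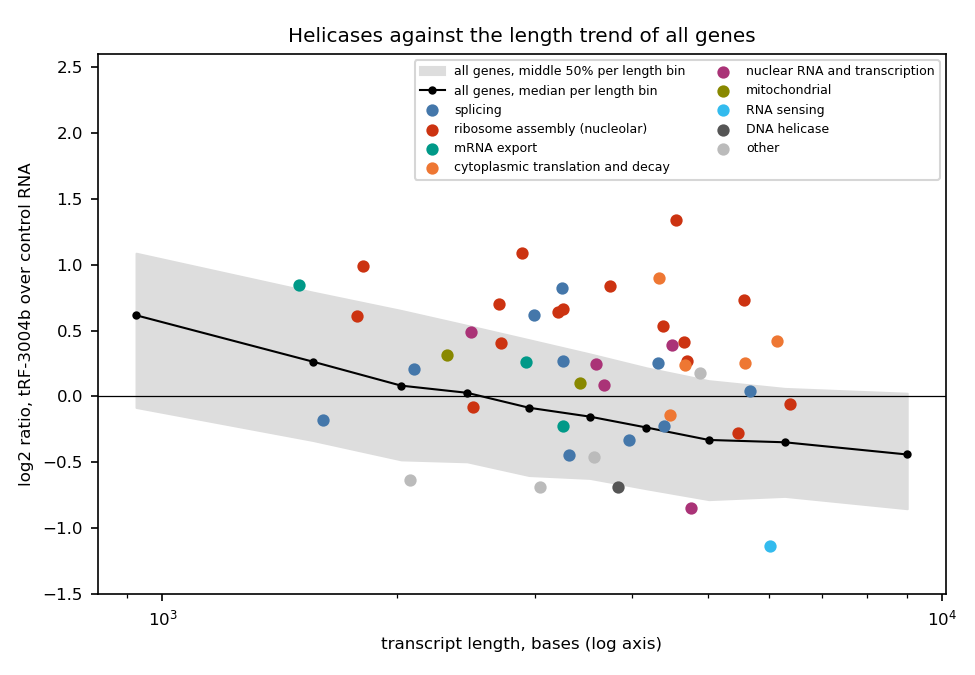
Log2 ratio (tRF-3004b over control RNA) against transcript length in bases (log axis) for 47 measured helicases coloured by role, over the median (black line) and middle 50% (grey) of all measured genes in each of 10 length bins. The line runs from 0.62 in the shortest bin to -0.44 in the longest, and 15 of the 16 ribosome assembly helicases lie above the median of their bin.

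Helicases of ribosome assembly, which work on pre-ribosomal RNA in the nucleolus, were higher as a group in the tRF-3004b library. All 16 were measured, and 13 had a ratio above 0 (44.5% of all measured genes). The interval lay above 0 for 12 (23.3% of all) and below 0 for DHX33 alone (28.6% of all). The list's median log2 ratio was 0.62, and it stayed between 0.29 (gene TPM with 1 added) and 0.74 (length trend removed) under every alternative. Summed over the list there were 3005 CPM in the tRF-3004b library and 2228 CPM in the control library, a log2 ratio of 0.43 (interval 0.39 to 0.47).

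DHX37, a DEAH helicase of small subunit maturation whose yeast counterpart releases the U3 snoRNA, was the highest well-counted member. It lies on chromosome 12 (124946826 to 124989131, GRCh38) and had 23.6 CPM in the tRF-3004b library, against 9.28 CPM in the control library. The ratio was 2.53-fold, or 1.34 on the log2 scale (interval 0.83 to 1.84), and rested on 42 counts in the tRF-3004b library and 185 in the control library. DDX56, which acts in large subunit assembly (chromosome 7, 44565804 to 44573908), had 60.2 CPM in the tRF-3004b library and 28.3 CPM in the control library, a log2 ratio of 1.09 (0.78 to 1.39). DDX47, needed for processing of 18S rRNA (chromosome 12, 12813346 to 12829981), had 149 CPM in the tRF-3004b library and 75.02 CPM in the control library, a log2 ratio of 0.99 (0.80 to 1.18). The intervals of these 3 genes overlap, so their order is uncertain. DDX47 shares 34.9% of its 31-base words with APOLD1, annotated on the same strand, and the sum over both genes had a log2 ratio of 0.80.

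Several abundant nucleolar helicases were higher by less than 2-fold. DDX18, the counterpart of yeast Has1, had 402 CPM in the tRF-3004b library and 225 CPM in the control library, a log2 ratio of 0.84 (0.72 to 0.95). DDX24, the counterpart of yeast Mak5, had 181 CPM in the tRF-3004b library and 109 CPM in the control library, a log2 ratio of 0.73 (0.56 to 0.90). DDX10 had 82.7 CPM in the tRF-3004b library against 53.1 CPM in the control library, a log2 ratio of 0.64 (0.38 to 0.89). These intervals lay wholly above 0, as did those of DDX55, DDX31, DDX49, DDX54, DDX27 and DDX21. DDX21, a nucleolar helicase that also takes part in transcription, had 1373 CPM in the tRF-3004b library and 1030.0 CPM in the control library, and its log2 ratio of 0.41 (0.35 to 0.48) was the most precise of the list.

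Gene totals of DDX55, DDX31 and DDX49 were higher too, but not the sums of their coding transcripts. DDX55, a factor of the large subunit, had 64.2 CPM in the tRF-3004b library and 39.5 CPM in the control library, a log2 ratio of 0.70 (0.40 to 0.98). DDX31, also a nucleolar factor of the large subunit, had 39.4 CPM in the tRF-3004b library and 24.8 CPM in the control library, a log2 ratio of 0.66 (0.28 to 1.03). With coding transcripts alone their log2 ratios were -2.86 and -1.22, and that of DDX49 was -0.37 in place of 0.61. Under that alternative 10 of the 16 genes lay above 0 and the list's median was 0.39. Such ratios rest on the estimated division of reads among a gene's transcripts, whose error was not measured. Single coding transcripts of DDX31 went both ways. NM_138620 had 15 counts in the tRF-3004b library and 49 in the control library, a log2 ratio of 1.75 (0.84 to 2.64). NM_001322342 had 0 counts in the tRF-3004b library and 418 in the control library.

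The remaining members of the list were near or below 0. DDX50, a close paralog of DDX21, had 180 CPM in the tRF-3004b library and 189 CPM in the control library, a log2 ratio of -0.08 (-0.25 to 0.09). DDX52 was at -0.06 (-0.21 to 0.09) and DDX51, with 16 counts in the tRF-3004b library, at 0.27 (-0.57 to 1.02). DHX33, a nucleolar DEAH helicase, had 97.9 CPM in the tRF-3004b library against 119 CPM in the control library, a log2 ratio of -0.28 (-0.51 to -0.05) that came to 0.05 with the length trend removed.

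**Figure D3:**
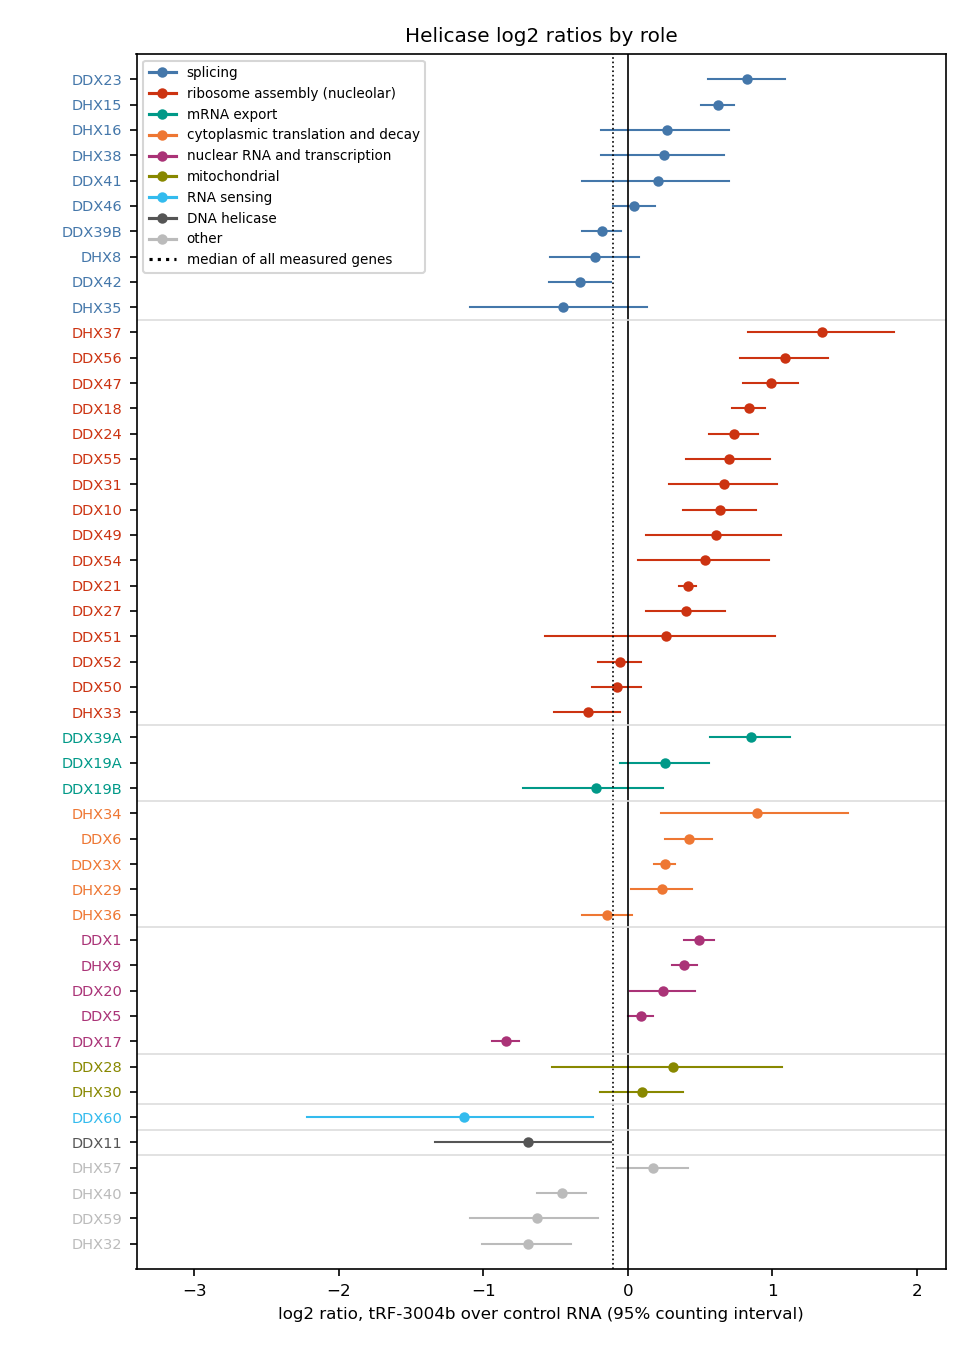
Log2 ratio (tRF-3004b over control RNA) for 47 measured helicases, with the 95% interval for counting error, grouped and coloured by role; the dotted line marks the median of all measured genes at -0.11. The ribosome assembly list runs from -0.28 for DHX33 to 1.34 for DHX37, and the intervals of 9 members, among them DDX17, DDX60 and DHX32, lie wholly below 0.

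Spliceosomal helicases, which drive steps of the splicing cycle, had ratios on both sides of 0 with scaled counts. All 10 were measured, with 6 above 0 (44.5% of all measured genes) and 4 below it. The interval lay above 0 for DDX23 and DHX15 (23.3% of all measured genes) and below 0 for DDX42 and DDX39B (28.6% of all). It held 0 for the other 6. The median log2 ratio was 0.13 with scaled counts and turned to -0.22 with gene TPM and 1 added. With that unit 2 of 10 lay above 0 (30.5% of all genes). With coding transcripts alone 9 of 10 lay above 0 (43.6% of all genes) and the median was 0.22. DDX23, which frees the 5' splice site from the U1 particle, had 76.0 CPM in the tRF-3004b library and 42.9 CPM in the control library, a log2 ratio of 0.82 (0.55 to 1.09). DHX15, which takes spent spliceosomes apart and also works on pre-ribosomes, had 398 CPM in the tRF-3004b library and 259 CPM in the control library, a log2 ratio of 0.62 (0.51 to 0.74).

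Among the lower splicing members, DDX42, an ATPase associated with the U2 particle, had 108 CPM in the tRF-3004b library and 136 CPM in the control library, a log2 ratio of -0.33 (-0.55 to -0.12). DHX8, which releases the spliced mRNA, had 54.0 CPM in the tRF-3004b library and 63.2 CPM in the control library, a log2 ratio of -0.23 (-0.54 to 0.07). DHX35, found in the catalytic spliceosome, had 14.1 CPM in the tRF-3004b library and 19.2 CPM in the control library, a log2 ratio of -0.45 (-1.09 to 0.14) that came to 0.99 with coding transcripts alone. The DEAH helicases of the catalytic steps, DHX16 and DHX38, were at 0.27 and 0.25 and DDX41 at 0.21, each with an interval that held 0. DDX46, which helps the U2 particle onto the branch site, stood at 0.04 (-0.11 to 0.19).

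DDX17 was the lowest of the members with a mean of at least 10 CPM, and its close paralog DDX5 was slightly above 0 with scaled counts. Both are nuclear helicases that act as coregulators of transcription and in splicing and microRNA processing. DDX17 (chromosome 22, 38483438 to 38506311) had 527 CPM in the tRF-3004b library and 948 CPM in the control library. It was 1.80-fold lower, a log2 ratio of -0.85 (-0.94 to -0.75), from 937 counts in the tRF-3004b library and 18901 in the control library, and it stayed between -1.18 and -0.52 under every alternative. DDX5 (chromosome 17, 64498254 to 64506866) had 687 CPM in the tRF-3004b library and 645 CPM in the control library, a log2 ratio of 0.09 (0.00 to 0.17) that was -0.25 with gene TPM. The DDX5 count was 1.30 times that of DDX17 in the tRF-3004b library and 0.681 times in the control library. The pair shared less than 3% of their 31-base words.

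The other nuclear members were above 0 with scaled counts. DDX1, a subunit of the tRNA ligase complex, had 468 CPM in the tRF-3004b library and 333 CPM in the control library, a log2 ratio of 0.49 (0.39 to 0.60). DHX9, which resolves double-stranded RNA and R-loops, had 682 CPM in the tRF-3004b library and 520 CPM in the control library, a log2 ratio of 0.39 (0.30 to 0.48). DDX20, the Gemin3 protein of the SMN complex that builds spliceosomal snRNPs, was at 0.25 (0.02 to 0.47) with scaled counts and at -0.09 with gene TPM. The median of the 5 nuclear genes was likewise 0.25 with scaled counts and -0.09 with gene TPM.

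Of the 5 helicases of cytoplasmic translation and decay 4 were above 0 (44.5% of all measured genes). Their median was 0.26 and came to -0.08 with gene TPM. DHX34, a factor of nonsense-mediated decay, had 14.1 CPM in the tRF-3004b library and 7.52 CPM in the control library, a log2 ratio of 0.90 (0.23 to 1.52) from 25 counts in the tRF-3004b library and 150 in the control library. DDX6, which represses translation and promotes decapping, had 204 CPM in the tRF-3004b library and 152 CPM in the control library, a log2 ratio of 0.42 (0.26 to 0.58). DDX3X, an X-linked helicase that helps ribosomes through structured 5' leaders, had 925 CPM in the tRF-3004b library and 775 CPM in the control library, a log2 ratio of 0.26 (0.18 to 0.33) that was -0.08 with gene TPM. DHX29, which assists scanning ribosomes, was at 0.24 (0.02 to 0.45), and at -0.11 with gene TPM and -0.12 with coding transcripts alone. DHX36, which unwinds G-quadruplexes, had 166 CPM in the tRF-3004b library and 183 CPM in the control library, a log2 ratio of -0.14 (-0.32 to 0.03).

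The export helicases act at the nuclear pore and on the way to it. DDX39A, an export helicase, had 70.9 CPM in the tRF-3004b library and 39.3 CPM in the control library, a log2 ratio of 0.85 (0.57 to 1.12). Its paralog DDX39B, which serves both splicing and export, had 275 CPM in the tRF-3004b library and 311 CPM in the control library, a log2 ratio of -0.18 (-0.32 to -0.05) that was 0.14 with coding transcripts alone. DDX39A counts were thus 0.258 times those of DDX39B in the tRF-3004b library and 0.126 times in the control library.

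DDX19A and DDX19B, which strip proteins from mRNA at the cytoplasmic face of the pore, are neighbours on chromosome 16 (70346903 to 70373383 and 70289767 to 70335305). DDX19A had 54.6 CPM in the tRF-3004b library and 45.6 CPM in the control library, a log2 ratio of 0.26 (-0.06 to 0.56). DDX19B had 22.5 CPM in the tRF-3004b library and 26.3 CPM in the control library, a log2 ratio of -0.22 (-0.72 to 0.24). They share 845 words of 31 bases, so the split of reads between them is uncertain, and their summed counts had a log2 ratio of 0.10 (-0.16 to 0.36). The mitochondrial helicases DHX30 and DDX28, both tied to the mitochondrial ribosome, were at 0.10 (-0.19 to 0.38) and 0.32 (-0.53 to 1.07).

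The RNA-sensing helicases were scarce. DDX60, an interferon-induced cofactor of viral RNA sensing (chromosome 4, 168216294 to 168325979), had 5.63 CPM in the tRF-3004b library and 12.4 CPM in the control library, from 10 counts in the tRF-3004b library and 248 in the control library. It was 2.19-fold lower, a log2 ratio of -1.13 (-2.22 to -0.24). Its neighbour and paralog DDX60L (chromosome 4, 168356735 to 168480492) had 4 counts in the tRF-3004b library and 0 in the control library. The lower end of its interval was a log2 ratio of 2.89, with no upper end. DDX60L passed the filter through these 4 counts alone. Summed over both genes there were 14 counts in the tRF-3004b library and 248 in the control library, a log2 ratio of -0.65 (-1.55 to 0.12). DDX60 had more counts than DDX60L in both libraries, and with so few counts the ratio of either gene is imprecise. DHX58, which encodes the sensor LGP2, had 0 counts in both libraries, which allows up to 1.69 CPM in the tRF-3004b library and 0.150 CPM in the control library.

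Germline helicases had few counts in either library, and none reached a mean of 1 CPM. DDX4, the VASA protein of germ cells, had 0 counts in the tRF-3004b library and 6 in the control library, and DDX25 had 1 in the tRF-3004b library and 16 in the control library. DDX43 and DDX53 had 0 counts in both. None of these 4 genes was measured, so with DHX58 they make up the 5 members below the filter.

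Of the 4 members without a settled place in these processes, 1 was above 0 (44.5% of all measured genes). The interval lay below 0 for the other 3 (28.6% of all). DHX32 had 52.9 CPM in the tRF-3004b library and 85.4 CPM in the control library, a log2 ratio of -0.69 (-1.01 to -0.39). DDX59, known from an inherited disorder of face and digit development, had 26.5 CPM in the tRF-3004b library and 41.0 CPM in the control library, a log2 ratio of -0.63 (-1.09 to -0.21). DHX40 had 174 CPM in the tRF-3004b library and 239.6 CPM in the control library, a log2 ratio of -0.46 (-0.63 to -0.29). DHX57 was at 0.18 (-0.08 to 0.42). DDX11, a DNA helicase of sister chromatid cohesion, had 14.1 CPM in the tRF-3004b library and 22.8 CPM in the control library, a log2 ratio of -0.69 (-1.34 to -0.11). DDX11 shares 18.9% of its words with the pseudogene DDX12P, and the sum over both had a log2 ratio of -0.91 (-1.49 to -0.38). DHX32, DDX59, DHX40 and DDX11 kept their sign under every alternative.

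Reads can be misplaced where genes share sequence. With 3% of a member's 31-base words as the limit, 6 members shared sequence with another gene of the files on the same strand and 11 with a gene on the opposite strand. The library kit was directional, but whether strand was used in counting is not given in the sources used here. On the opposite strand DDX28 shared the most, 21.1% of its words, with DUS2. DHX32 shared words there with BCCIP, DDX24 with OTUB2, DDX5 with CEP95, DDX55 with EIF2B1 and DDX31 with GTF3C4. DDX54 shared them with CFAP73, DDX50 with ARHGEF38, DHX40 with RNFT1-DT, DHX38 with PMFBP1 and TXNL4B, and DDX43 with OOEP and CGAS. DHX40 shares 8.86% of its words with a readthrough pseudogene, TBC1D3P1-DHX40P1, and the sum had a log2 ratio of -0.47.

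Genes with a match to the tRF-3004b seed were not lower among the helicases. Of the 10 site genes 9 had a log2 ratio above 0, with the interval above 0 for 7 and below 0 for DHX40 alone. Among all 1818 measured genes with the site, 628 were above 0, with the interval above 0 for 356 and below 0 for 751. The median of the 10 helicases with the site was 0.41, and that of the 38 measured members without it was 0.22, with 24 above 0. Over all genes the site went with lower values, with a median of -0.25 in the 1818 measured genes that hold it and -0.08 in the 10363 that do not. Genes with the site had longer transcripts, with a median of 5111 bases against 3143, and with the length trend removed the medians were -0.00 and 0.01. Among the helicases the medians with the length trend removed were 0.61 with the site and 0.37 without it. A heptamer match is a string match and not a measured target site, and an effect of the site was not tested. The members with a site were DDX1, DDX6, DDX18, DDX19A, DDX20, DDX24, DDX31, DDX51, DHX9 and DHX40.

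The transcript that carried a gene differed between the libraries for a few members. With at least 50 counts in each library, 34 members could be compared, and 22 of them had counts in several transcripts. The leading transcript was the same in 19 of these 22 and differed in 3, DDX39B, DDX55 and DDX31. In 7 members some transcript's share differed by at least 20 percentage points. Such shares are kallisto's division of reads among the transcripts of a gene, and the binomial intervals given here leave out the error of that division.

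In DDX17 one of the 2 listed transcripts was lower and the other higher in the tRF-3004b library. NM_006386 held 62.8% of DDX17 counts in the tRF-3004b library (59.6% to 65.9%) and 92.2% in the control library (91.9% to 92.6%). It had 331 CPM in the tRF-3004b library against 874 CPM in the control library, a log2 ratio of -1.40 (-1.52 to -1.28). The other, NM_001098504, had 196 CPM in the tRF-3004b library against 73.5 CPM in the control library, a log2 ratio of 1.42 (1.25 to 1.59). The pair have lengths of 4761 and 4767 bases, and how many reads tell them apart was not tested.

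In DDX39B, NM_004640 held 99.4% of the counts in the tRF-3004b library (98.2% to 99.9%) and 24.5% in the control library (23.5% to 25.6%). The leading control transcript, NM_080598, held 0.181% in the tRF-3004b library and 54.1% in the control library. In DDX55 the non-coding transcript NR_135104 held 93.5% of the counts in the tRF-3004b library (86.6% to 96.9%) and 17.3% in the control library (14.7% to 20.1%). In DDX31 the non-coding NR_136309 held 51 of 70 counts in the tRF-3004b library and none of 495 in the control library, where NM_001322342 led with 418. The sign of all 3 genes turned when coding transcripts alone were counted. DDX46, DHX29 and DHX8 kept their leading transcript, and in DDX46 its share was 100% in the tRF-3004b library and 64.9% in the control library.

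**Figure D4:**
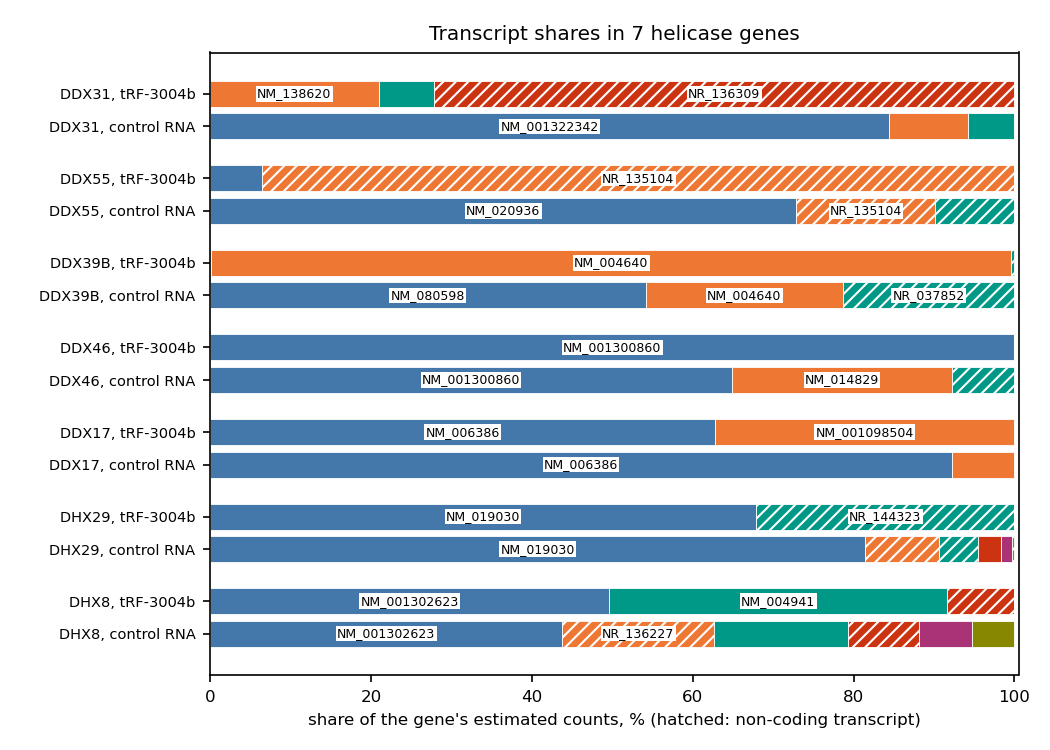
Share of each gene's estimated counts (%) held by its transcripts in the tRF-3004b library (upper bar of each pair) and the control RNA library (lower bar) for the 7 helicases in which some share differed by at least 20 percentage points; hatching marks non-coding transcripts and names are given for shares of at least 17%. DDX39B has 99.4% in NM_004640 in the tRF-3004b library and 24.5% in the control library, and DDX55 has 93.5% in the non-coding NR_135104 in the tRF-3004b library and 17.3% in the control library.

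Other RNA helicases and the partners of these enzymes give the setting. Of 18 measured RNA helicases without a DDX or DHX symbol 6 were above 0 (44.5% of all measured genes), with a median of -0.26. Their transcripts were long, with a median of 5804 bases, and with the length trend removed their median log2 ratio was 0.03. Of those with a mean of at least 10 CPM, the nonsense-mediated decay helicase UPF1 was highest at 0.44 and the mitochondrial SUPV3L1 next at 0.40. At the low end of these, the antiviral helicase MOV10 was at -1.56 (-2.65 to -0.68) from 10 counts in the tRF-3004b library and 335 in the control library and ZNFX1 at -0.49 (-1.27 to 0.19). The DEAD box translation factor EIF4A1 stood at 0.24 (0.17 to 0.30), at -0.10 with gene TPM, and its paralog EIF4A2 at -0.40 (-0.53 to -0.26).

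Of 21 G-patch proteins, all measured, 11 were above 0 (44.5% of all measured genes), with a median of 0.02. The interval lay above 0 for 4 (23.3% of all measured genes) and below 0 for 6 (28.6% of all), so these counts were near the background. Of those with a mean of at least 10 CPM, GPATCH4, a nucleolar G-patch protein, was highest and had 136 CPM in the tRF-3004b library and 32.5 CPM in the control library, a log2 ratio of 2.06 (1.85 to 2.28). PINX1, a nucleolar partner of DHX15, came next among these and had 21.4 CPM in the tRF-3004b library and 9.68 CPM in the control library, a log2 ratio of 1.14 (0.60 to 1.65). At the other end, the splicing factor RBM5 was at -1.20 (-1.54 to -0.87) and the cap methyltransferase CMTR1, which binds DHX15, at -0.97 (-1.38 to -0.59).

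Among 19 partners of DEAD box helicases, all measured, 10 were above 0 (44.5% of all measured genes), with a median of 0.05. The interval lay above 0 for 7 (23.3% of all measured genes) and below 0 for 5 (28.6% of all). SARNP, an export factor that binds DDX39B, was at 1.20 (1.02 to 1.38), and CWC22, the splicing partner of EIF4A3, at 1.13 (0.91 to 1.34). The lowest were EIF4B, which stimulates EIF4A, at -0.83 (-0.93 to -0.75), and PDCD4, which inhibits EIF4A, at -0.71 (-0.89 to -0.55).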

How the data were processed

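RNA-seq was done on poly-A RNA, with 1 library per group. The submitters' processing notes name kallisto 0.46.1 and GRCh38. For each of 70866 RefSeq transcripts the authors deposited, per the file headers, an estimated count, a TPM value and other columns with length and effective length in bases. Names came from a RefSeq table (70245 transcripts) and from GENCODE 29 (309). The 312 others were left out, with 0.0617% of counts in the tRF-3004b library and 0.0608% in the control library. The annotation release and whether strand was used are not given in the sources.

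Gene counts are sums of estimated counts, rounded. TMM factors (edgeR 4.0.16, R 4.3.3) were 0.983 for tRF-3004b and 1.02 for control, and no model was fitted. For log2 ratios 0.5 counts were added at a common library size. Their 95% intervals are exact conditional binomial intervals (Clopper-Pearson) without added counts, as are those of transcript shares. Reads have no molecular identifiers, so intervals and floors (3 counts per library) cover counting error only. Median counts of the measured helicases were 131 in the tRF-3004b library and 1222 in the control library. Each 3' UTR is from the GENCODE 29 transcript matched to the most abundant coding transcript that has such a match. Shared 31-base words were sought on both strands.

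The members, role lists and alternatives were chosen with earlier results of these data known. Both libraries' values are given for the 12 highest and 12 lowest members with a mean of at least 10 CPM, for paralogs, for members at 0 and for small role lists. Of each partner list the 2 highest and 2 lowest with a mean of at least 10 CPM are named. EIF4A1, EIF4A2 and further members were added after their values were seen. Alternatives were scaling by total counts or by DESeq2 1.42.0, filters at 5 CPM, 10 CPM or 1 count, gene TPM with 1 added, 5 added counts, coding (NM) transcripts only, the medians of 10 length bins taken off, and sums over genes with shared sequence. The computation was checked on simulated data. Python 3.11.15, numpy 2.4.6, pandas 2.3.3, scipy 1.17.1 and matplotlib 3.10.9 were used.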

Additional observations from a re-analysis of the deposited data

How the results depend on the processing

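The members' median log2 ratio kept its sign, between 0.21 (total counts) and 0.45 (length trend removed), except with gene TPM and 1 added, where it was -0.082. The number at least 2-fold higher was 3, and ran from 2 to 4 except for 0 with gene TPM and 5 with the length trend removed. The number at least 2-fold lower was 1, but 0 with a mean of at least 10 CPM or the length trend removed, 2 with a filter of 1 count, and 3 with gene TPM or with coding transcripts alone. With gene TPM the sign turned for 13 members, of which 4 had an interval away from 0 with scaled counts: DDX20 (-0.094), DDX3X (-0.081), DDX5 (-0.25) and DHX29 (-0.11). With coding transcripts alone it turned for 7, of which 5 had such an interval: DDX31 (-1.22), DDX39B (0.14), DDX49 (-0.37), DDX55 (-2.86) and DHX29 (-0.12). With the length trend removed it turned for 4, of which DHX33 (0.053) had such an interval. In the other turned members the interval held 0, as it did for DDX46 with total counts (-0.0087) and for DDX19B summed with DDX19A (0.10). The filters change which members are counted, and for the other settings the cause was not tested. No paired analysis was possible because each group has 1 library. The depth of the tRF-3004b library limits small differences: a member at 0 there may hold up to 1.69 CPM.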
